A study of Mus musculus with 18 samples.

Results

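Chemokine ligands are small secreted or membrane-bound proteins that guide leukocytes. The genes described here are the protein-coding mouse genes whose symbol is Ccl or Cxcl followed by a number, together with Cx3cl1, Xcl1, Ppbp and Pf4. A total of 46 gene identifiers of the 41605 in the counts met this rule. Of these, 39 lie on the assembled chromosomes and 7 are copies of Ccl19, Ccl21 and Ccl27 genes on unplaced scaffolds. There were 28 that passed the filter on low counts and were tested, 6 that had counts but did not pass it, and 12 that had 0 counts in all 18 libraries.

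The libraries are bulk RNA sequencing of skin from C57BL/6 mice aged 8-12 weeks, with 6 libraries labelled PBS (phosphate-buffered saline, the control), 6 labelled detergent A and 6 labelled detergent B. The series asks how skin given each laundry detergent differs from skin given PBS. No group is labelled with a transgene, deletion or other agent, and the labels give no dose, duration, body site, or product behind the names A and B. They do not say whether each library is its own animal, so the p-values cover only how these samples spread, which may be technical.

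A chemokine binds receptors of the G protein-coupled family on leukocytes, and cells move towards its source. Inflammatory chemokines such as Cxcl1, Cxcl2 and Ccl2 are switched on in keratinocytes, fibroblasts, macrophages and endothelium by signals such as interleukin-1 and tumour necrosis factor, in large part through the transcription factor NF-kB. Homeostatic chemokines such as Cxcl12 and Cxcl14 are made in resting skin and place resident cells.

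The neutrophil chemokines Cxcl1, Cxcl2 and Cxcl3 and the macrophage chemokine Ccl3 are among the ligands with uneven values between libraries, so their promoters are shown. Each line is the stretch from 160 to 41 bases before the RefSeq start site, written 5′ to 3′ on the gene's own strand, from RefSeq on the GRCm38.p6 build. Capitals mark matches, on either strand, to the NF-kB consensus sequence GGGRNNYYCC, where R is A or G, Y is C or T and N is any base.
Cxcl1: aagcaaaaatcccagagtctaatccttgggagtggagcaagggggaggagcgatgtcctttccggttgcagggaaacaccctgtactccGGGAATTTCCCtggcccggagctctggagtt
Cxcl2: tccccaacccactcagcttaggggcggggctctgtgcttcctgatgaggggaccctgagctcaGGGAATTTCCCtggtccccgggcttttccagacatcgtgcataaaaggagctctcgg
Cxcl3: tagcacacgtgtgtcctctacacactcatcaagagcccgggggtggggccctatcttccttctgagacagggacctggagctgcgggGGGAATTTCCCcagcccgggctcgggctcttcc
Ccl3: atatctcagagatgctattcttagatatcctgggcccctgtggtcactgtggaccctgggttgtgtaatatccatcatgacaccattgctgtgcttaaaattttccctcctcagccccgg
The stretches lie at chr5:90891085-90891204 for Cxcl1, chr5:90903739-90903858 for Cxcl2 and chr5:90785941-90786060 for Cxcl3, all on the plus strand, and at chr11:83649419-83649538 on the minus strand for Ccl3. Cxcl1, Cxcl2 and Cxcl3 held the same run of capitals, in which a match on the plus strand overlaps one on the minus strand, and the Ccl3 stretch held no match. RefSeq promoters were matched for 29 of the 41 distinct member symbols. Within 250 bases before the start, 7 of these 29 symbols (24.1%) held a match in any of their promoters. Counted by promoter instead of by symbol, 2382 of all 32851 promoters (7.25%) held one. The consensus was chosen after the data were seen, and the shares were not compared by a test. The 7 were Cxcl1, Cxcl2, Cxcl3, Cxcl10, Ccl1, Ccl9 and Ccl20. A match is a description of these letters and was not tested as a binding site.

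Total counts ranged from 17312623 to 29599018 per library. Levels below are CPM (counts scaled to a common library total) with library sizes adjusted by the trimmed mean of M values (TMM). A count of 3 in a library, taken as the limit that a count of 0 allows, was worth 0.096 to 0.184 CPM, for counting error only. Hair shaft keratins varied widely between libraries. Their 10 measured genes of 11 listed summed to 20.45 to 480.8 CPM in PBS libraries (median 279.8), 3.688 to 291.2 CPM with detergent A (median 61.16) and 3.88 to 193.1 CPM with detergent B (median 19.08). PBS replicate 6 stood apart from the other PBS libraries, with the lowest hair shaft sum of its group and the highest level of all 18 libraries for 6 chemokine ligands. These were Ccl2, Ccl5, Cx3cl1, Cxcl9, Cxcl10 and Xcl1. Fold changes without this library are given below for these genes except Cx3cl1. They are not given for Cxcl14 and Cxcl16, for which this library was the lowest and the highest of the PBS group. In bulk tissue, fewer cells of a type and less RNA per cell cannot be told apart.

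No chemokine ligand passed an adjusted p of 0.05 in any comparison by edgeR's quasi-likelihood test, with p-values adjusted by Benjamini and Hochberg over all 16836 genes tested. With detergent A against PBS, 0 of 28 members passed, where 0.19% of all tested genes did (0.0535% higher and 0.137% lower). With detergent B against PBS, 0 of 28 passed, where 3.05% of all tested genes did (1.97% higher and 1.08% lower). Between detergent B and detergent A, 0 of 28 passed, as did 0.0% of all tested genes. At an unadjusted p under 0.05 the counts of members were 2 with detergent A (Cxcl2 and Cxcl14, against 18.8% of all genes), 3 with detergent B (Ccl5, Cxcl14 and Xcl1, against 23.3%) and 3 between the detergents (Ccl8, Ccl22 and Ccl9, against 3.27%). The lowest adjusted p among members was 0.2206, 0.12 and 0.9887 in the same order.

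DESeq2 also called 0 members in all 3 comparisons, where it called 4.81%, 8.46% and 0.0% of all genes. The voom method of limma with sample quality weights called 2 members with detergent A (23.2% of all genes), 3 with detergent B (30.1%) and 0 between the detergents. Those were Cxcl14, lower with both detergents, Cxcl16, higher with both, and Ccl27a, higher with detergent B. No member had groups that did not overlap in any comparison. Among all genes, non-overlapping groups were higher in 0.404% and lower in 0.956% with detergent A, and higher in 1.72% and lower in 1.12% with detergent B. Between the detergents the shares were 0.0297% in each direction.

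The log2 fold change against PBS was positive for 11 and negative for 17 members with detergent A, with a median of -0.06 beside -0.01 over all tested genes. It was positive for 19 and negative for 9 with detergent B, with a median of 0.18 beside -0.01. Of all tested genes, 48.4% had a positive log2 fold change with detergent A and 48.7% with detergent B. Both sets of fold changes share the PBS libraries, and the 28 members are not independent of one another.

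**Figure D1:**
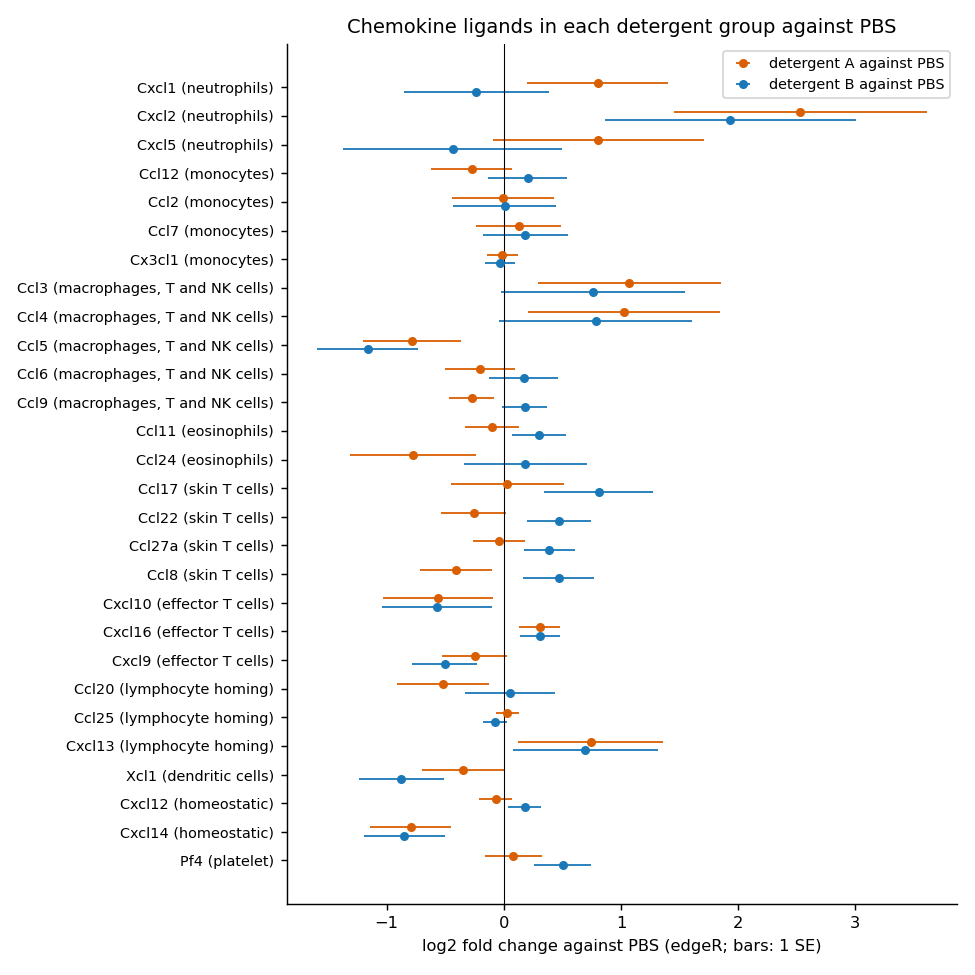
Log2 fold changes (x axis) of the 28 tested chemokine ligands (y axis, grouped by the leukocytes they attract) for each detergent against PBS, with bars of 1 SE from edgeR. Cxcl2 is the farthest to the right with detergent A, at 2.53, and none of the 28 passed an adjusted p of 0.05.

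Per kilobase of exon, the scale on which genes can be ranked, the chemokine ligand with the highest level in skin was Ccl8, which in mice draws T helper 2 cells through the receptor Ccr8. Its mean over the 18 libraries was 189.9 CPM per kb. Pf4, the platelet chemokine, followed at 56.26 CPM per kb, and Ccl6, a macrophage product, at 52.54. The next were Cxcl14 at 42.68, Ccl7 at 40.15, Ccl9 at 29.65, Ccl2 at 27.05 and Cxcl16 at 19.56 CPM per kb. The lowest of the tested members was Cxcl9 at 0.8576 CPM per kb. Each pair of neighbours in this order overlapped in its library values.

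**Figure D2:**
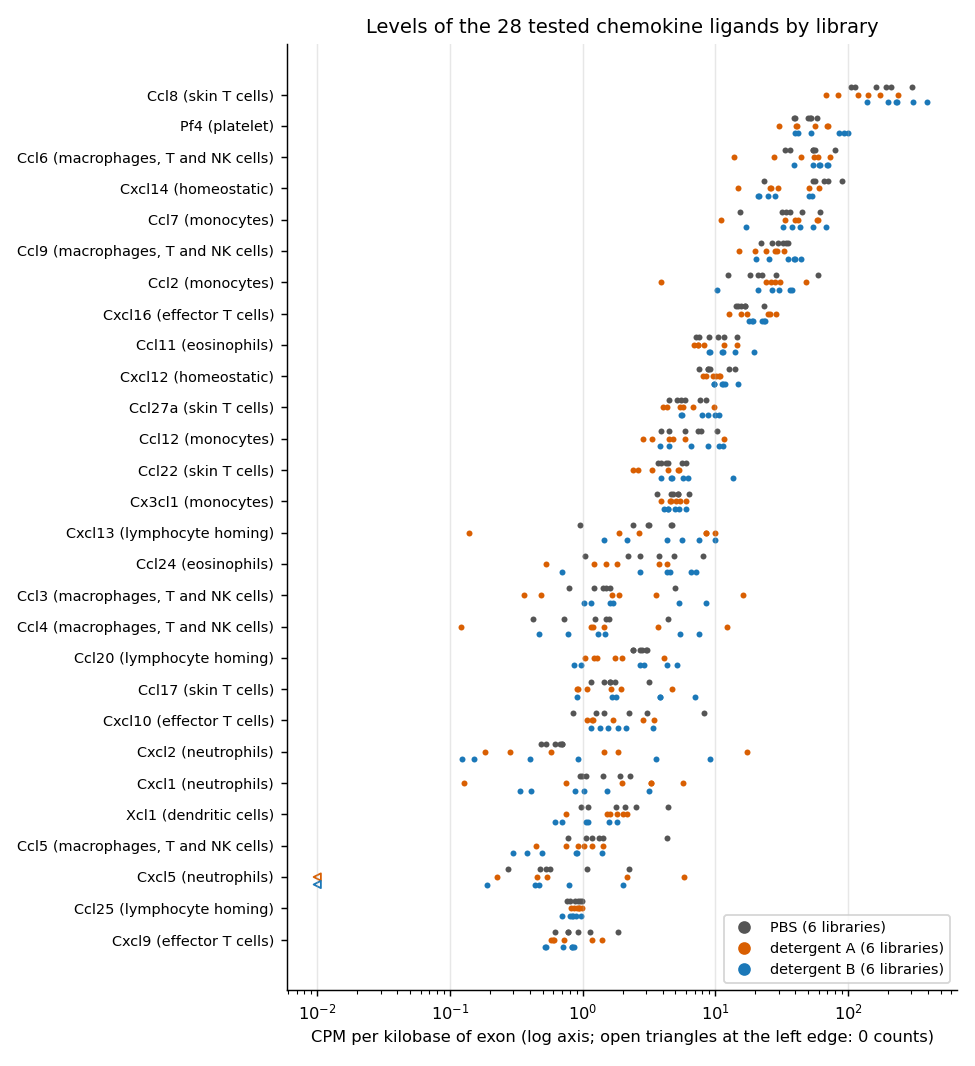
Level of each of the 28 tested chemokine ligands in CPM per kilobase of exon (x axis, log scale), with 1 point per library coloured by treatment and open triangles at the left edge for 0 counts. Ccl8 leads with a mean of 189.9 CPM per kb, and Cxcl2, Cxcl5, Ccl4 and Cxcl13 are among those that spread widely between libraries.

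Chemokines that attract neutrophils through Cxcr2 (Cxcl1, Cxcl2, Cxcl3, Cxcl5, Ppbp) were low in PBS skin and uneven between detergent libraries. Cxcl2 (chr5:90903871-90905938, plus strand, GRCm38) was at 1.006 to 1.453 CPM in PBS libraries (median 1.333). With detergent A it was at 0.3802 to 35.74 CPM (median 2.096), and with detergent B at 0.253 to 18.95 CPM (median 1.374). The ranges overlapped, since 3 libraries of each detergent lay below the PBS mean, while 1 library led each detergent group. That was replicate 1 of detergent A, whose next highest library was at 3.795 CPM, and replicate 4 of detergent B, followed by replicate 2 at 7.422 CPM. With edgeR, the log2 fold change of Cxcl2 was 2.53 ± 1.08 (SE) with detergent A (edgeR adjusted p = 0.2206) and 1.93 ± 1.07 with detergent B (edgeR adjusted p = 0.2816). Without replicate 1 of detergent A the first became 0.49, and without replicate 4 of detergent B the second became 0.70.

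Cxcl1, the main neutrophil chemokine of keratinocytes and fibroblasts, had a median of 2.32 CPM with PBS (1.788 to 4.242), 4.89 with detergent A (0.2379 to 10.63) and 1.779 with detergent B (0.6314 to 5.981). Its highest library was replicate 4 of detergent A and its lowest replicate 6 of detergent A, so that group held both ends of the range. Its log2 fold change was 0.80 ± 0.61 with detergent A (edgeR adjusted p = 0.4885) and -0.24 ± 0.62 with detergent B (edgeR adjusted p = 0.8483). Cxcl5 ranged from 0 to 10.88 CPM with detergent A, again with replicate 1 highest, against 0.509 to 4.163 with PBS and 0 to 3.745 with detergent B. Cxcl3, which did not pass the low-count filter, was at 3.996 CPM in replicate 1 of detergent A and at 0.6677 CPM or less in every PBS library. Its median was 0.1265 CPM with detergent A, below the 0.3063 CPM of PBS, and 0.2238 CPM with detergent B. Cxcl1 and Cxcl2, neighbours on chromosome 5, did not show a detectable correlation over the 18 libraries (r = 0.30, rho = 0.30, adjusted permutation p = 0.478 and 0.541).

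**Figure D3:**
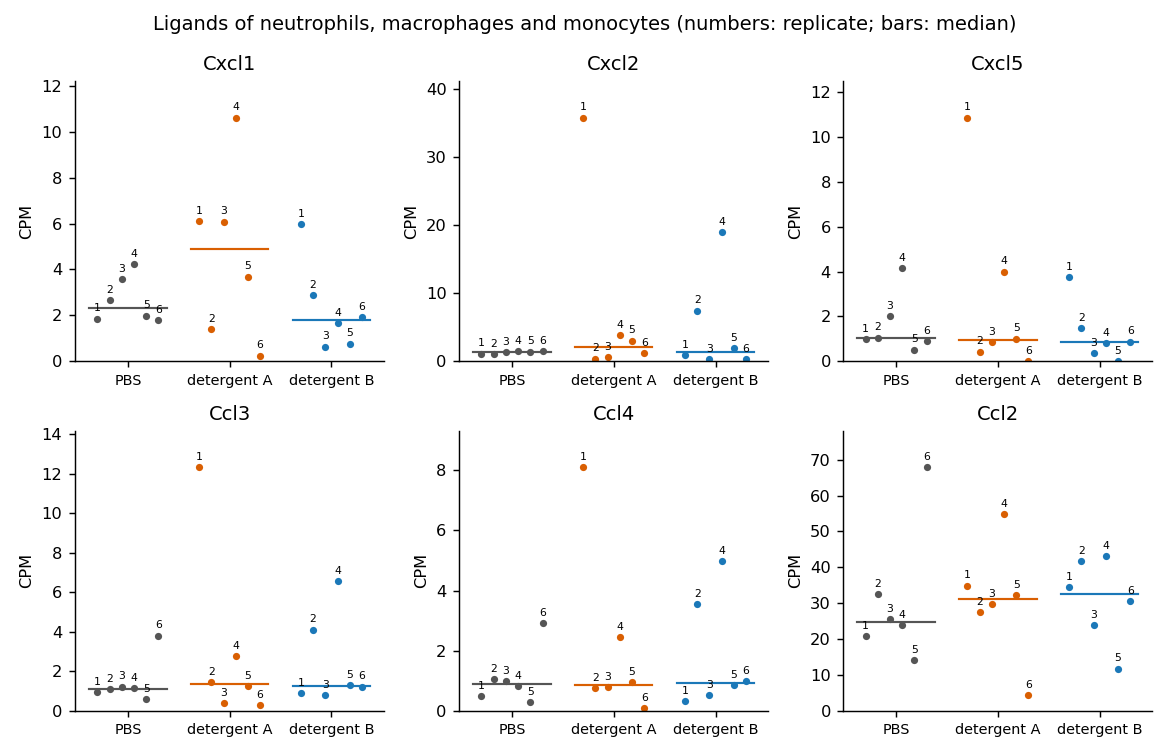
Levels in CPM (y axis) of Cxcl1, Cxcl2, Cxcl5, Ccl3, Ccl4 and Ccl2 by treatment (x axis), with 1 numbered point per replicate and a bar at each median. In Cxcl2, replicate 1 of detergent A at 35.74 CPM and replicate 4 of detergent B at 18.95 CPM lie far above the PBS libraries at 1.006 to 1.453 CPM.

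Summed over the 6 genes of the neutrophil class, levels were 4.442 to 10.88 CPM with PBS (median 5.099), 1.467 to 58.05 with detergent A (median 8.24) and 1.815 to 23.55 with detergent B (median 7.246). The sums overlapped between groups. Their receptor Cxcr2 had a median of 15.03 CPM with PBS (11.89 to 22.19), 32.18 with detergent A (9.713 to 61.18) and 25.97 with detergent B (18.54 to 39.32). For this gene, the log2 fold change was 1.03 ± 0.33 with detergent A and 0.73 ± 0.33 with detergent B, which did not pass (edgeR adjusted p = 0.1212 and 0.1904). The library highest for Cxcr2 with detergent A was replicate 4, not replicate 1. The 10 neutrophil markers, of which 4 were tested and none was called, summed to 22.12 to 44.6 CPM with PBS. The sum was 18.79 to 110.6 CPM with detergent A and 30.8 to 56.06 with detergent B. Cxcr2 is itself in this sum. The log2 fold changes of Csf3r, Mmp8 and Retnlg were 0.11 ± 0.39, 0.09 ± 0.62 and 0.93 ± 0.60 with detergent A. With detergent B they were -0.19 ± 0.39, 0.0 ± 0.61 and -0.51 ± 0.65. Replicate 4 was the highest detergent A library for each of these genes too, at 43.2, 2.252 and 3.211 CPM. The order of their medians over the groups differed from that of Cxcr2. With PBS, detergent A and detergent B, the medians of Csf3r were 14.13, 8.819 and 10.83 CPM. Those of Mmp8 were 0.7339, 0.3963 and 0.5454 CPM, and those of Retnlg 0.666, 0.6797 and 0.4298 CPM. The part of neutrophil RNA in these values was not tested.

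The chemokines that attract monocytes overlapped between groups. Ccl2 (chr11:82035571-82037453, plus strand) had a median of 24.71 CPM with PBS (14.16 to 67.88), 31.06 with detergent A (4.44 to 54.8) and 32.46 with detergent B (11.78 to 43.04). Its log2 fold change was -0.01 ± 0.44 with detergent A and 0.01 ± 0.44 with detergent B, and 0.39 and 0.40 without PBS replicate 6, the highest library. A difference within these standard errors was not detectable here. Ccl7, its neighbour and another Ccr2 ligand, had medians of 28.27, 32.88 and 32.68 CPM with PBS, detergent A and detergent B, within ranges of 12.35 to 49.17, 8.801 to 47.75 and 13.75 to 54.76 CPM. Cx3cl1, the membrane-bound ligand of Cx3cr1, was the steadiest, at 14.34 to 24.69 CPM with PBS (median 19.73), 15.38 to 23.6 with detergent A (median 19.03) and 16.18 to 23.43 with detergent B (median 18.45). Ccl12, a mouse Ccr2 ligand, had medians of 3.58, 2.492 and 4.115 CPM in the same order.

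Genes next to each other on the genome were compared over the 18 libraries in 12 pairs of tested members no more than 50000 bp apart, on log2 CPM. Ccl2 and Ccl7 varied together (r = 0.94, rho = 0.92, adjusted permutation p = 6e-05 and 0.00012), with r = 0.89 without the 2 libraries farthest from the median. The macrophage chemokines Ccl3 and Ccl4 did so as well (r = 0.94, rho = 0.86, adjusted permutation p = 6e-05 and 0.00012), with r = 0.89 after the same step. Ccl9 and Ccl6, ligands of Ccr1, followed (r = 0.82, rho = 0.68, adjusted permutation p = 0.00012 and 0.0122), with r = 0.70. Cxcl9 and Cxcl10 had r = 0.68 and rho = 0.54 (adjusted permutation p = 0.00612 and 0.0623), but r = 0.37 without the 2 farthest libraries, so this relation rests on those samples. The other 8 pairs had adjusted p-values of 0.478 or more. Removing the group means left r at 0.95, 0.94, 0.78 and 0.69 for the 4 pairs. For Cxcl9 and Cxcl10 the 0.69 keeps the libraries on which their relation rests.

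Among chemokines of macrophages, T cells and NK cells, Ccl3 and Ccl4 repeated the uneven pattern of Cxcl2. Ccl3 (chr11:83647844-83649355, minus strand) was at 0.6015 to 3.799 CPM with PBS (median 1.118), 0.2775 to 12.32 with detergent A (median 1.35) and 0.7892 to 6.572 with detergent B (median 1.261). The highest library was replicate 1 of detergent A, replicate 4 of detergent B and replicate 6 of PBS, and the groups overlapped. In the edgeR fit, its log2 fold change was 1.07 ± 0.78 with detergent A (edgeR adjusted p = 0.4687) and 0.76 ± 0.78 with detergent B (edgeR adjusted p = 0.5821). Without replicate 1 the value for detergent A was -0.23, and without replicate 4 the value for detergent B was 0.18. Ccl4 reached 8.102 CPM in replicate 1 of detergent A and 4.983 CPM in replicate 4 of detergent B, against medians of 0.8714 and 0.9191 CPM. The cytokine Il1b, which induces these chemokines, was also highest in those libraries, at 59.88 and 32.47 CPM against group medians of 6.336 and 7.913 CPM. Whether Il1b accounts for the chemokine levels was not tested.

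Ccl5, a T cell and NK cell product, had the smallest p with detergent B (chr11:83525778-83530518, minus strand). It was at 0.7463 to 4.134 CPM with PBS (median 1.2), 0.4238 to 1.37 with detergent A (median 0.9395) and 0.2874 to 1.338 with detergent B (median 0.6661). All 6 detergent B libraries lay below the PBS mean, but the ranges overlapped. The log2 fold change was -1.16 ± 0.43 with detergent B (edgeR adjusted p = 0.12) and -0.78 ± 0.42 with detergent A (edgeR adjusted p = 0.321). PBS replicate 6 was the highest library, with the next PBS library at 1.375 CPM. Without it the values were -0.64 (edgeR adjusted p = 0.2235) and -0.26 (edgeR adjusted p = 0.6804). NK cell markers, 5 listed and 1 tested, summed to 12.46 CPM in that library and to 3.507 CPM or less in every detergent library. The group medians of this sum were close, at 2.639 CPM with PBS, 2.406 with detergent A and 3.09 with detergent B. T cell markers, 8 listed and 7 tested with none called, had summed medians of 245.8 CPM with PBS, 197.3 with detergent A and 219.6 with detergent B. Thy1 made up most of that sum, with medians of 225.3, 181.8 and 197.0 CPM. The median log2 fold change of the tested T cell markers was -0.33 with detergent A and -0.05 with detergent B. The part of T cells and NK cells in the Ccl5 value was not tested.

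Ccl6 and Ccl9 are abundant products of myeloid cells. Ccl6 had medians of 97.89 CPM with PBS (60.17 to 143.3), 89.74 with detergent A (24.63 to 132.3) and 109.4 with detergent B (70.24 to 126). Ccl9 (chr11:83572919-83578636, minus strand) had medians of 94.4 CPM with PBS (67.2 to 108.3), 79.43 with detergent A (46.08 to 99.69) and 113.2 with detergent B (61.45 to 134.8). The groups of both genes overlapped, and replicate 3 of detergent A was the lowest library for each. On the log2 scale, the fold change of Ccl9 was -0.27 ± 0.19 with detergent A and 0.18 ± 0.19 with detergent B against PBS (edgeR adjusted p = 0.4552 and 0.608). Between detergent B and detergent A it was 0.45 ± 0.19 (edgeR adjusted p = 0.9887).

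Of the eosinophil chemokines, Ccl11 (eotaxin-1, a ligand of Ccr3) had medians of 10.51 CPM with PBS (7.712 to 15.87), 8.481 with detergent A (7.469 to 15.82) and 12.3 with detergent B (9.622 to 21.3). Ccl24 (eotaxin-2) had medians of 4.166 CPM with PBS (1.341 to 10.5), 2.156 with detergent A (0.6886 to 5.59) and 5.742 with detergent B (0.9037 to 9.255). All groups overlapped for both genes. Ccl24 had a log2 fold change of -0.78 ± 0.54 with detergent A against PBS (edgeR adjusted p = 0.4443). Ccl26 had 0 counts in every library. The receptor Ccr3 stayed near the floor, at 0.9201 CPM or less in every library. The 6 eosinophil markers, of which 2 were tested and none was called, summed to 3.496 to 17.09 CPM over all libraries. The medians of this sum were 9.938 CPM with PBS, 4.951 with detergent A and 8.045 with detergent B. With detergents A and B, the log2 fold changes of the tested markers were -0.62 and -0.35 for Ear2 and 0.32 and 0.37 for Ccr3. The part of eosinophils in the chemokine values was not tested.

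Ccl8 and Ccl22, which attract T helper 2 and skin-homing T cells, had the smallest unadjusted p-values of the 28 members between the detergents. Ccl8 (chr11:82115185-82116799, plus strand) was at 53.69 to 155.3 CPM with PBS (median 91.24), 34.82 to 120.8 with detergent A (median 66.61) and 70.85 to 201.1 with detergent B (median 118.1). All 6 detergent B libraries lay above the detergent A mean, and the groups overlapped. The log2 fold change of detergent B against detergent A was 0.87 ± 0.31 (unadjusted p = 0.01103, edgeR adjusted p = 0.9887). Against PBS, Ccl8 was at -0.41 ± 0.31 with detergent A and 0.47 ± 0.31 with detergent B (edgeR adjusted p = 0.4885 and 0.3651).

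Ccl22, the dendritic cell product that binds Ccr4 (chr8:94745590-94751699, plus strand), was at 8.56 to 14.02 CPM with PBS (median 10.03), 5.584 to 12.34 with detergent A (median 8.943) and 9.078 to 31.38 with detergent B (median 12.11). Replicate 4 of detergent B was the highest, with the next at 14.36 CPM, and the groups overlapped. By edgeR, its log2 fold change between detergent B and detergent A was 0.73 ± 0.28 (unadjusted p = 0.01635, edgeR adjusted p = 0.9887), and 0.36 without that library. Ccl17, the other Ccr4 ligand, had medians of 0.8238 CPM with PBS, 0.6945 with detergent A and 1.446 with detergent B, and reached 3.641 CPM in replicate 1 of detergent B. Its log2 fold change with detergent B against PBS was 0.81 ± 0.47 (edgeR adjusted p = 0.3006).

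Ccl27a, the keratinocyte ligand of Ccr10, had medians of 13.49 CPM with PBS (10.69 to 20.17), 13.23 with detergent A (9.656 to 23.03) and 19.93 with detergent B (13.21 to 25.39). With edgeR, the log2 fold change with detergent B was 0.39 ± 0.22 against PBS (edgeR adjusted p = 0.2903) and 0.43 ± 0.22 against detergent A (edgeR adjusted p = 0.9887). Of 50-base stretches of the Ccl27a transcript, 69.2% also occur in other genes, with the scaffold copies left out of the sequences compared. How reads that match several places were counted is not given, so the counts of Ccl27a are uncertain. Ccl27b and the scaffold copies of Ccl27 had 0 counts in every library. Ccr4 had medians of 6.114, 6.601 and 5.737 CPM with PBS, detergent A and detergent B, with no call.

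The medians of the summed monocyte and macrophage markers were in the same order over the groups as those of Ccl8, Ccl9 and Ccl24. This order was not particular to them. Ccl6, Ccl11, Ccl12, Ccl17, Ccl20, Ccl22, Ccl27a and Pf4 had it too. So did the summed mast cell markers (medians 159.5, 117.5 and 160.9 CPM with PBS, detergent A and detergent B) and NK cell markers (2.639, 2.406 and 3.09 CPM). The 8 monocyte and macrophage markers were all tested and none was called. They summed to 491.3 to 1082 CPM with PBS (median 690.5) and 261.2 to 1054 with detergent A (median 545.5). With detergent B the sum was 497.1 to 1412 CPM (median 820.3). Lyz2, the most abundant, had medians of 309.1, 184.1 and 326.8 CPM. Of the 8 markers, Cd14 and Ly6c2 had the opposite sign, at 0.58 and 0.25 on the log2 scale for detergent A against PBS and -0.24 and -0.44 for detergent B against detergent A. The part of any of these cell types in the chemokine values was not tested.

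**Figure D4:**
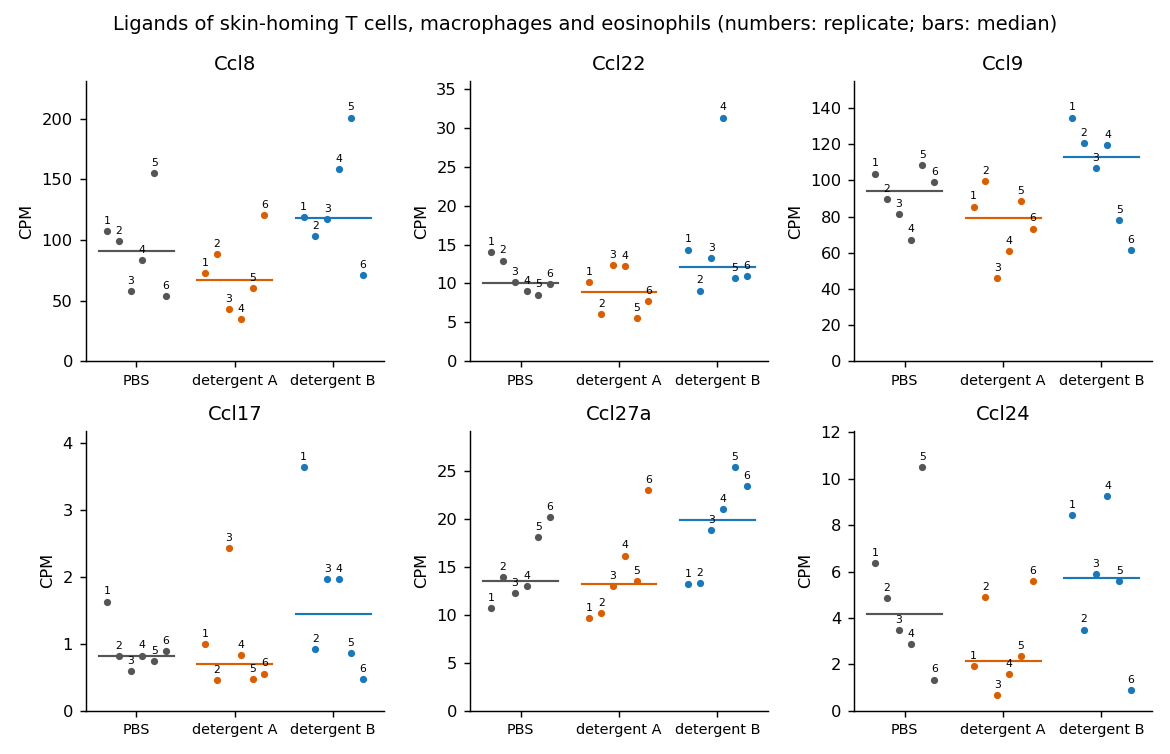
Levels in CPM (y axis) of Ccl8, Ccl22, Ccl9, Ccl17, Ccl27a and Ccl24 by treatment (x axis), with 1 numbered point per replicate and a bar at each median. The medians of Ccl8 are 91.24 CPM with PBS, 66.61 with detergent A and 118.1 with detergent B, and the groups overlap in each panel.

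The ligands of Cxcr3, which attract effector T cells after interferon, were low. Cxcl9 was at 1.856 to 5.587 CPM with PBS (median 2.578), 1.751 to 4.202 with detergent A (median 2.008) and 1.56 to 2.576 with detergent B (median 2.311). All 6 detergent B libraries lay below the PBS mean of Cxcl9, and the groups overlapped. The log2 fold change with detergent B was -0.51 ± 0.28 (edgeR adjusted p = 0.281), and -0.25 without PBS replicate 6. Cxcl10 had medians of 4.135, 3.241 and 3.819 CPM with PBS, detergent A and detergent B, and 18.49 CPM in PBS replicate 6. For this gene, the log2 fold change was -0.56 and -0.57 with detergents A and B, and 0.12 and 0.11 without that library, so its sign rests on it. Cxcl10 shares 133 bp of exon with Art3 on the other strand, so its counts may include reads of that gene.

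Xcl1, the lymphotactin of T cells and NK cells that draws cross-presenting dendritic cells through Xcr1, also had its highest library in PBS replicate 6 (chr1:164931644-164935527, minus strand). It was at 0.5106 to 2.291 CPM with PBS (median 1.011), 0.3885 to 1.126 with detergent A (median 0.8965) and 0.3253 to 0.947 with detergent B (median 0.5634). All 6 detergent B libraries lay below the PBS mean, and the groups overlapped. The log2 fold change with detergent B was -0.87 ± 0.37 (edgeR adjusted p = 0.1616), and -0.55 without PBS replicate 6 (edgeR adjusted p = 0.2745). Its exons overlap those of Gm20743 on the other strand by 98 bp, and the strand setting of the counts is not given in the sources used here.

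The homeostatic chemokine Cxcl14, made by resting epidermis and hair follicles (chr13:56288643-56296551, minus strand), had negative fold changes with both detergents, neither past the threshold. It was at 42.85 to 165.8 CPM with PBS (median 111), 27.29 to 110.6 with detergent A (median 51.08) and 38.32 to 97.83 with detergent B (median 48.85). All PBS libraries except replicate 6, the lowest, lay at 99.8 CPM or above, and a single detergent library, replicate 2 of detergent A, did so. In the edgeR fit, its log2 fold change was -0.80 ± 0.34 with detergent A (edgeR adjusted p = 0.2237) and -0.85 ± 0.34 with detergent B (edgeR adjusted p = 0.1493). Cxcl16, the transmembrane ligand of Cxcr6 (chr11:70453983-70459984, minus strand), was at 43.61 to 69.89 CPM with PBS (median 48.69), 38.44 to 87.03 with detergent A (median 63.95) and 54.1 to 71.52 with detergent B (median 62.94). Replicate 6 was the highest PBS library, with the next at 50.57 CPM, and the groups overlapped through it in detergent B. The log2 fold change of Cxcl16 was 0.30 ± 0.17 with detergent A and 0.31 ± 0.17 with detergent B (edgeR adjusted p = 0.3471 and 0.2815).

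Both genes varied with the hair shaft keratins over the 18 libraries, Cxcl14 in the same direction and Cxcl16 in the opposite one. Against the hair shaft score, the mean log2 CPM of 10 hair keratin genes, Cxcl14 had r = 0.92 and rho = 0.88 (adjusted permutation p = 0.00014 for each over 28 members). Without the 2 libraries farthest from the median r was 0.93, and with group means removed 0.88. Cxcl16 had r = -0.90 and rho = -0.91 (adjusted permutation p = 0.00014 for each), with -0.87 and -0.90 after the same steps. No other member had an adjusted p below 0.335.

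The scores left a gap between 0.327 and 1.87, with 8 libraries below it and 10 above, unevenly spread over the treatments. Above it lay 5 PBS, 3 detergent A and 2 detergent B libraries, and below it 1, 3 and 4. Above the gap, Cxcl14 had r = 0.77 and rho = 0.89 (adjusted permutation p = 0.0324 and 0.005 over 4 relations), over levels of 46.9 to 166 CPM, and r = 0.68 with group means removed. Below it, at 27.3 to 54 CPM, the values were r = 0.46 and rho = 0.29 (adjusted exact permutation p = 0.318 and 0.501). Cxcl16 had r = -0.63 above the gap and -0.41 below it (adjusted permutation p = 0.102 and 0.318, exact for the 8 libraries), neither past the threshold. With the score as a covariate, the log2 fold change of Cxcl14 was 0.02 with each detergent, and that of Cxcl16 was -0.14 with detergent A and -0.11 with detergent B. Cxcl16 shares 552 bp of exon with Zmynd15 on the other strand, and 19% of its 50-base stretches, so its counts may include reads of that gene.

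**Figure D5:**
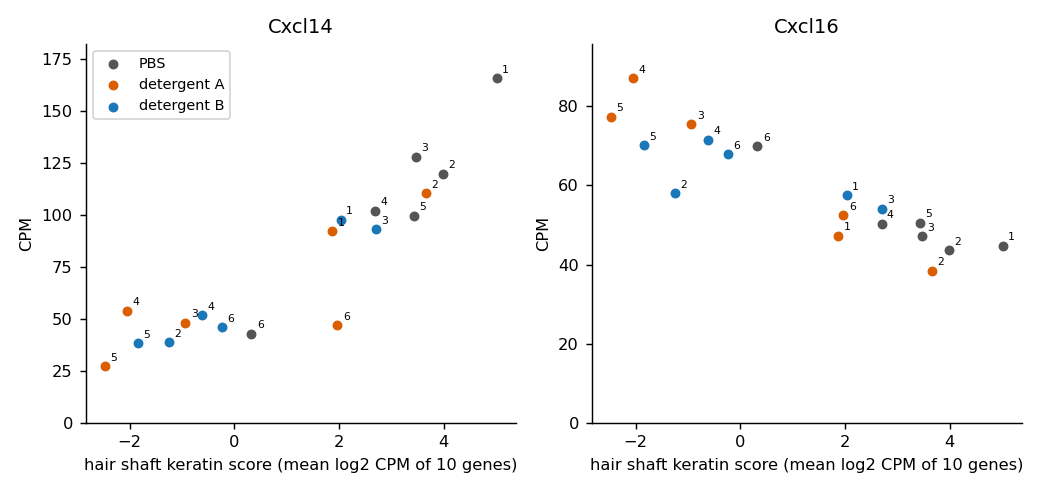
Levels in CPM (y axis) of Cxcl14 and Cxcl16 against the hair shaft keratin score (x axis, mean log2 CPM of 10 genes), with 1 numbered point per library coloured by treatment. Cxcl14 is high and Cxcl16 low where the score is high, with r = 0.92 and r = -0.90 over the 18 libraries.

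Cxcl12, the stromal ligand of Cxcr4 and Ackr3, had medians of 73.29 CPM with PBS (61.35 to 115.5), 80.76 with detergent A (66.15 to 89.3) and 92.79 with detergent B (79.35 to 122.1). On the log2 scale, its fold change was -0.07 ± 0.14 and 0.18 ± 0.14 with detergents A and B (edgeR adjusted p = 0.8278 and 0.4751). Pf4, stored in platelet granules and also made by tissue macrophages, had medians of 36.67 CPM with PBS (28.04 to 41.95), 35.09 with detergent A (21.67 to 51.15) and 49.92 with detergent B (28.56 to 71.75). The groups overlapped, and the log2 fold change of Pf4 with detergent B was 0.50 ± 0.25 (edgeR adjusted p = 0.2226). The 4 platelet markers, of which 2 were tested and none was called, summed to 46.86 to 71.4 CPM with PBS (median 60.26). With detergent B the sum was 55.76 to 90.25 CPM (median 64.08), most of it Gp1bb. The tested markers went opposite ways with detergent B, with log2 fold changes of 0.30 ± 0.15 for Gp1bb and -0.29 ± 0.15 for Itga2b.

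Among the chemokines of lymphoid homing, Cxcl13, which draws B cells through Cxcr5, had medians of 3.592 CPM with PBS (1.1 to 5.394), 6.426 with detergent A (0.1589 to 11.34) and 5.683 with detergent B (1.657 to 11.35). Its log2 fold change was 0.74 ± 0.62 and 0.70 ± 0.62 with detergents A and B (edgeR adjusted p = 0.5338 and 0.5157). Ccl20, the ligand of Ccr6 on interleukin-17-producing T cells and immature dendritic cells, was at 3.408 to 4.323 CPM with PBS (median 3.924), 1.475 to 5.838 with detergent A (median 2.16) and 1.227 to 7.283 with detergent B (median 3.97). Ccl20 was tight in PBS and spread over a wider range with both detergents, and the groups overlapped. Ccl25 was steady at 5.201 to 7.423 CPM over all libraries, but shares 204 bp of exon with Elavl1 on the other strand.

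The zeros of several lymphoid homing genes are uncertain. Ccl21a and Ccl21b had 0 counts throughout and Ccl19 had 1 count in a single library, although lymphatic endothelium, which makes Ccl21, was present. Its 6 markers, all tested, summed to 83.29 to 161.4 CPM. Of 50-base stretches, 71.6% of Ccl21a, 100% of Ccl21b, 59.1% of Ccl19 and 98.1% of Ccl27b also occur in other genes. The scaffold copies were not among the sequences compared. How the authors treated reads that match several places is not given in the sources used here. Ccl27b, Ccl26 and Cxcl15 were the other chromosomal members at 0. Below the filter, Ppbp reached 1.332 CPM, Ccl1 0.6241, Ccl28 0.5004 and Cxcl17 0.1643 CPM in their highest libraries.

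Of the chemokine receptors, 7 of 11 CC receptors and 6 of 8 CXC, CX3C and XC receptors were tested, with 0 called in any comparison by edgeR. The 5 atypical receptors, which take up chemokines without the usual signal, were all tested with 0 called. The CC receptor Ccr2 was the most abundant of its list, with medians of 28.13 CPM with PBS, 29.0 with detergent A and 37.22 with detergent B. Ackr4, which takes up Ccl19, Ccl21 and Ccl25, led the atypical receptors with medians of 33.33, 36.53 and 38.23 CPM.

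The cytokines that induce chemokines differed from the chemokines themselves in the count of calls, without a test of that difference. Of 25 listed inducers, 22 were found and 11 tested. Of those tested, 1 rose with detergent A (0.0535% of all genes rose) and 4 rose with detergent B (1.97% of all genes rose). The median log2 fold change of the tested inducers was 0.76 with detergent A and 0.59 with detergent B. Negative values, none past the threshold, were those of Ltb (-0.84), Tnf (-0.42) and Tslp (-0.07) with detergent A. With detergent B they were those of Il6 (-0.43) and Tnf (-0.23). Il1f8 (interleukin-36 beta) rose by 1.08 ± 0.22 on the log2 scale with detergent A (edgeR adjusted p = 0.04654) and by 1.33 ± 0.22 with detergent B (edgeR adjusted p = 0.009783). Il1f6 (interleukin-36 alpha) rose by 1.61 ± 0.23 with detergent B, from a median of 18.06 to 64.32 CPM (edgeR adjusted p = 0.006215). Il1f9 (interleukin-36 gamma) and Il1a also rose with detergent B, by 0.92 ± 0.20 and 0.68 ± 0.15 (edgeR adjusted p = 0.02755 and 0.02561). Of 4 keratinocyte markers, all tested, Krt1 rose with detergent B by 1.47 ± 0.28 (edgeR adjusted p = 0.01591). Krt10 was at 0.91 ± 0.27 (edgeR adjusted p = 0.06519). With detergent A, Krt1 was at 1.0 ± 0.28 and Krt14 at 0.80 ± 0.28 on the log2 scale (edgeR adjusted p = 0.08477 and 0.1501). Their part in the cytokine values was not tested. All 11 genes of the NF-kB feedback list were tested and 0 were called in any comparison by edgeR. Its most abundant gene, Nfkb1, had medians of 115.4 CPM with PBS, 126.8 with detergent A and 120.1 with detergent B. Its log2 fold changes were 0.11 ± 0.09 and 0.01 ± 0.09 with detergents A and B. Nfkbia, named after its values were seen, had medians of 94.57, 82.16 and 85.15 CPM in the same order of groups. Its log2 fold changes were -0.06 ± 0.19 and -0.14 ± 0.19. The median log2 fold change of the list was -0.06 with detergent A and -0.03 with detergent B.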

How the data were processed

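The authors deposited raw, whole-number read counts per gene, 1 table per library, per the file headers and values. STAR, featureCounts and the GRCm38.p5 build are named in the submitters' processing notes. Not given in the sources used here are the annotation release, strand setting and handling of multi-mapped reads. Of 41605 identifiers, 41519 matched GENCODE M21 for symbols and coordinates and 86 did not.

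Gene tests on these counts used edgeR 4.0.16 (R 4.3.3): default filter (16836 genes kept, with at least 99.88% of each library's counts), TMM scaling, robust quasi-likelihood fit with group as the single term on all 18 libraries (15 residual degrees of freedom), and Benjamini-Hochberg adjustment over those genes (threshold 0.05). The SE is the log2 fold change divided by the square root of F. Log2 CPM used a prior count of 2. Correlations used 100000 permutations (smallest p 1e-05), or every permutation for 8 libraries. Alternatives were DESeq2 1.42.0, voomWithQualityWeights of limma 3.58.1, other size factors, a replicate block, no filter, fits to the 12 libraries compared, a hair shaft covariate and each library left out. The split at the gap in hair shaft scores and the NF-kB consensus were chosen after seeing the data, the consensus after a looser motif had been searched. Scripts were tested on simulated data. No library was left out.

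Members and gene lists were chosen with earlier results of these data known. Values are given for the members with the 8 smallest p-values in each comparison with PBS and the 4 smallest between detergents, the leading member per length of each class, and members with a mean of 10 CPM or more in a group. Genes past the threshold are given for the lists the text uses. Other members are given by their ranges, and receptors and inducers named beyond this rule were chosen after their values were seen.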

Additional observations from a re-analysis of the deposited data

Results flagged for a closer look

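In 84 groups of 6 libraries (28 members in 3 treatments), 7 had a single library set apart from the other libraries by a gap above the 95% critical value of Dixon's test on log2 CPM. Values below are in CPM. Chance alone sets a library apart in about 1 group in 20.

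Within the PBS group, replicate 6 was the highest library for Cxcl16 at 69.9 CPM, for Ccl3 at 3.8 CPM and for Ccl5 at 4.13 CPM. Within detergent A, replicate 6 was the lowest library for the neighbouring genes Ccl2 at 4.44 CPM and Ccl7 at 8.8 CPM, and replicate 1 was the lowest for Xcl1 at 0.388 CPM. Within detergent B, replicate 4 was the highest library for Ccl22 at 31.4 CPM. Replicate 6 of detergent A was also the lowest of all 18 libraries for Ccl3, Ccl4 and Cxcl1.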

How the results depend on the processing

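The count of chemokine ligands past the threshold was 0 in each comparison under every alternative run except voomWithQualityWeights. That method called 1 higher and 1 lower with detergent A, and 2 higher and 1 lower with detergent B. It gave Cxcl14 a log2 fold change of -1.20 with each detergent (adjusted p = 0.01088 and 0.005248), Cxcl16 0.43 and 0.40 (adjusted p = 0.03285 and 0.02771) and Ccl27a 0.51 with detergent B (adjusted p = 0.036), and turned Cxcl2 with detergent B to -0.09. With the hair shaft score as a covariate, Cxcl14 turned to 0.02 with each detergent and Cxcl16 to -0.14 and -0.11 with detergents A and B. Ccl3 with detergent A ranged from -0.23 (without replicate 1 of detergent A) to 1.60 (without PBS replicate 6) when single libraries were left out. The cause of the other changes was not tested. Over 25 alternatives the sign changed at least once for 17 of 28 members with detergent A, 10 with detergent B and 10 between the detergents.

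Libraries with the same replicate number had correlations from -0.348 to 0.546. Libraries with different numbers were not compared in this way, so whether the numbers pair the samples was not tested. The fit with a replicate block called 0 members in each comparison. Low counts limit Cxcl3, Ppbp, Ccl1, Ccl28, Cxcl17 and Ccl19, which were not tested.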

Other observations

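Cxcl11, a ligand of Cxcr3 that the annotation lists as a polymorphic pseudogene and the rule therefore leaves out, had 0 to 5 counts per library. The library with the most members at the lowest level of all 18 was replicate 3 of detergent A, with 7 (Ccl6, Ccl9, Ccl11, Ccl12, Ccl24, Cxcl13 and Pf4). Replicate 5 of detergent B was highest for 5 members (Ccl8, Ccl27a, Cxcl12, Cxcl13 and Pf4) and for the summed monocyte and macrophage markers.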
